A study of Mus musculus with 8 samples.

Results

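The change in gene expression that followed the loss of Pitx3 in both the substantia nigra pars compacta (SNc) and the ventral tegmental area (VTA) is described here from 8 of the 8 arrays in the series. Newborn C57Bl/6 pups aged P1 to P4 were either wild-type at the Pitx3 locus (Pitx3+/+;Th-EGFP+/-, called WT) or null for it (Pitx3-/-;Th-EGFP+/-, called KO). Every pup therefore carried 1 copy of the Th-EGFP transgene, in which the tyrosine hydroxylase promoter drives a green fluorescent protein, and the controls differed from the null pups only in Pitx3 as far as the labels say. SNc and VTA were dissected, digested with papain, and living EGFP+ cells that excluded propidium iodide were sorted, which gave 4 groups of 2 arrays (WT and KO cells from SNc, WT and KO cells from VTA). Pitx3 status was compared over 4 KO and 4 WT arrays with region as an additive term, and a change was counted as shared only where the KO minus WT difference had the same sign in SNc and in VTA. Each array was made from a pool of stored batches of sorted cells, and it is not stated whether duplicate pools were drawn from different pups. The p-values then measure only the spread between these arrays, which may be technical, and the number of arrays limits the precision.

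Pitx3 is a homeodomain transcription factor of midbrain dopaminergic (mDA) neurons, which make dopamine with tyrosine hydroxylase, load it into vesicles and take it back with the dopamine transporter. It acts with the nuclear receptor Nurr1 (Nr4a2) on genes of dopamine handling and on Aldh1a1, an enzyme that makes retinoic acid. In mice without Pitx3 the neurons of the ventral SNc (vSNc) are lost before birth while those of the dorsal SNc (dSNc) survive, and in the newborn VTA the neurons that would have expressed Pitx3 are still present. SNc KO thus holds a different set of neurons from SNc WT, whereas VTA KO holds neurons that lack the factor beside neurons that never expressed it. In bulk samples of this kind, fewer cells of a type and less RNA per cell cannot be told apart.

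The values are log2 signals of probesets on Affymetrix Mouse Gene 1.0 ST arrays. Of 35512 probesets, 22112 had a mean signal of at least 60 on the linear scale (5.91 on the log2 scale) in at least 1 group, and 14666 of these carried 1 gene symbol (13264 genes). The array medians lay between 6.11 and 6.24, and the root mean square SD between the arrays of a group was 0.242 for the SNc WT pair, 0.241 for the VTA WT pair, 0.252 for the SNc KO pair and 0.376 for the VTA KO pair. The sorted cells carried the dopaminergic markers on every array, with Th between 10.01 and 10.34, Nr4a2 between 10.09 and 10.32 and Ddc between 9.93 and 10.80. The cells were sorted by a reporter of the Th promoter, so the Th level is no separate check. The probeset of Pitx3 itself was as bright in KO as in WT arrays (7.72 and 7.63 in SNc WT, 7.87 and 7.94 in SNc KO, 8.10 and 7.84 in VTA WT, 8.08 and 7.92 in VTA KO). Neither the deletion nor the position of the probes is described in the sources used here, so Pitx3 neither checks nor contradicts the labels, and KO below stands for the arrays labelled KO.

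Aldh1a1, Rgs6 and Slc6a3, which mark the dopaminergic neurons of the vSNc, fell in both regions, while the secreted factors Fst and Fgf10, the receptors Grm8 and Htr2a and the channel Kcnk9 rose in both. In the additive limma model 7 genes rose and 6 fell at a Benjamini-Hochberg adjusted p under 0.05 with the same sign in both regions, which is 13 of the 22112 probesets tested (0.0588%; 0.0317% higher and 0.0271% lower) or 0.0886% of those with 1 symbol. With only the 1-symbol probesets in the fit and the adjustment, 65 passed (38 higher and 27 lower), the 13 among them. The genes that fell were Aldh1a1, Mir181b-1, Rgs6, Slc6a3, CK137956 and Dcc, and those that rose were Fst, Fgf10, Kcnk9, Grm8, Htr2a, Cdh7 and Slc32a1. Each of the 13 was measured by 1 probeset. In each of them the KO arrays did not overlap the WT arrays in either region, a pattern also seen in 5.17% of all 1-symbol probesets in the upward and in 3.98% in the downward direction. The call on the same arrays favours this pattern, so it adds no support of its own.

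**Figure D1:**
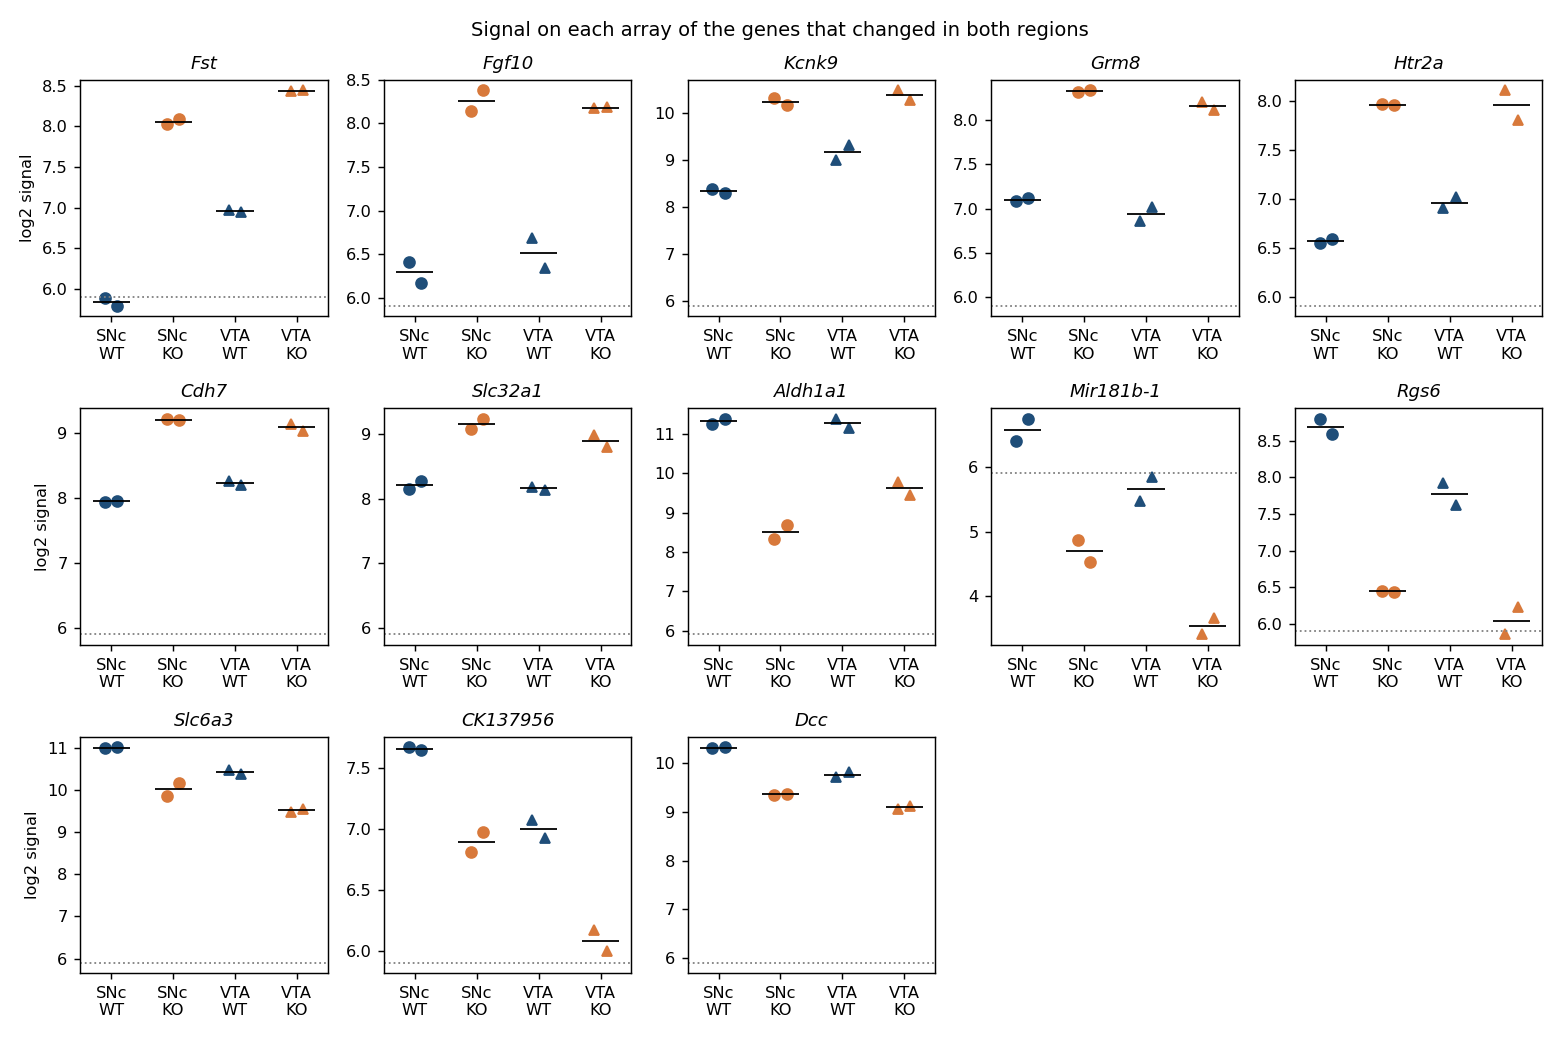
Log2 signal on each of the 8 arrays for the 13 genes, with WT arrays in blue, KO arrays in orange, SNc as circles, VTA as triangles, a black line at the mean of each pair and a dotted line at the signal minimum. In each panel both KO arrays of a region lie on the same side of both WT arrays of that region.

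Aldh1a1, which oxidises retinaldehyde to retinoic acid and in the SNc marks the ventral neurons, showed the largest shared fall. Its log2 signal was 11.26 and 11.38 in SNc WT, 8.33 and 8.69 in SNc KO, 11.38 and 11.16 in VTA WT, and 9.78 and 9.45 in VTA KO. WT levels were alike in the 2 regions and KO levels were lower in SNc than in VTA. The shared difference was -2.23 ± 0.24 (SE), a 4.70-fold reduction (limma adjusted p = 0.0437), made up of -2.81 in SNc and -1.65 in VTA.

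Rgs6, a regulator of G-protein signalling of the R7 class that shortens signalling through Gi/o-coupled receptors, read 8.80 and 8.59 in SNc WT, 6.44 and 6.44 in SNc KO, 7.92 and 7.62 in VTA WT, and 5.86 and 6.23 in VTA KO. WT signal was higher in SNc, and after Pitx3 loss both regions came down towards the signal minimum. The shared difference was -1.99 ± 0.15 (3.97-fold lower, limma adjusted p = 0.0107), with -2.25 in SNc and -1.73 in VTA. Slc6a3, the dopamine transporter, read 10.98 and 11.00 in SNc WT, 9.85 and 10.17 in SNc KO, 10.46 and 10.37 in VTA WT, and 9.48 and 9.55 in VTA KO. It therefore remained among the bright probesets of the array after a shared fall of -0.94 ± 0.09 (1.92-fold, limma adjusted p = 0.0321), which was nearly of the same size in SNc (-0.98) and in VTA (-0.90).

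Dcc, a netrin receptor that guides growing axons, read 10.32 and 10.32 in SNc WT, 9.35 and 9.38 in SNc KO, 9.72 and 9.82 in VTA WT, and 9.07 and 9.13 in VTA KO. The pairs of arrays were tight and each KO pair was clear of its WT pair, with a shared difference of -0.81 ± 0.09 (1.76-fold lower, limma adjusted p = 0.0437). CK137956, a transcript named after its sequence record, read 7.67 and 7.65 in SNc WT, 6.81 and 6.97 in SNc KO, 7.07 and 6.93 in VTA WT, and 6.17 and 6.00 in VTA KO. Its shared difference of -0.84 ± 0.09 (limma adjusted p = 0.0411) was 1 of the 2 among the 13 that were larger in VTA (-0.91) than in SNc (-0.77).

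The other was Mir181b-1, a microRNA gene. Members of the miR-181 family are short RNAs that pair with target transcripts mainly through bases 2 to 8, the seed. RefSeq (GRCm38.p6) places the mature miR-181b-5p of this gene at chr1:137966650-137966673 on the plus strand. The 5′ arms of the family are taken from RefSeq and shown because they differ outside the seed and the array has a probeset for each gene that encodes them. The seed is in capitals.
mmu-miR-181a-5p: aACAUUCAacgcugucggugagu
mmu-miR-181b-5p: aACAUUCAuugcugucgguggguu
mmu-miR-181c-5p: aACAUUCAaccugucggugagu
mmu-miR-181d-5p: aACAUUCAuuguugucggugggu
All 4 share the seed ACAUUCA, which no other of the 1679 mature sequences of the table holds at that position.

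The Mir181b-1 probeset read 6.41 and 6.75 in SNc WT, 4.87 and 4.53 in SNc KO, 5.47 and 5.86 in VTA WT, and 3.41 and 3.66 in VTA KO. Only the SNc WT mean exceeded the signal minimum, so the size of the difference (-2.01 ± 0.15, limma adjusted p = 0.0106) rests on dim signals in the other 3 groups. RNA was amplified from total RNA, and whether this probeset reads the precursor hairpin or a longer transcript was not tested. Of the same family, Mir181a-1, which lies beside Mir181b-1 on the chromosome, stayed under the minimum in all groups and differed by -0.80 in SNc and -0.51 in VTA. The second miR-181b gene, Mir181b-2, encodes the same mature sequence and differed by -0.27 in SNc and 0.48 in VTA. Mir181c differed by 0.47 and 0.20, and Mir181d by 0.16 and -0.07. Among these probesets only Mir181b-1 passed the test of the shared effect, and whether its fall differs from the values of its relatives was not tested.

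**Figure D2:**
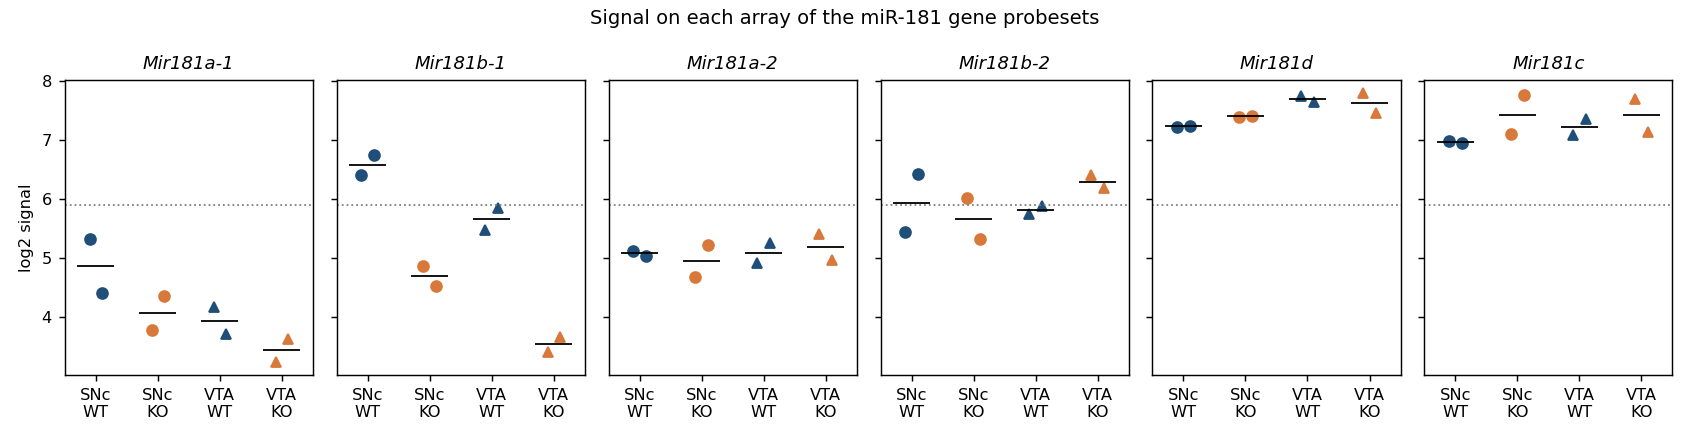
Log2 signal on each array of the 6 probesets of miR-181 genes, drawn as in the plot of the 13 genes on 1 common axis. Mir181b-1 fell in both regions, Mir181a-1 and Mir181a-2 lie under the dotted signal minimum throughout, and the KO and WT arrays of Mir181d and Mir181c lie above it.

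Among the genes that rose, 2 encode secreted proteins of growth factor signalling. Fst encodes follistatin, which binds and blocks activins and some bone morphogenetic proteins, and read 5.89 and 5.80 in SNc WT, 8.03 and 8.09 in SNc KO, 6.97 and 6.95 in VTA WT, and 8.44 and 8.44 in VTA KO. It went from just under the signal minimum to a clear signal in SNc, and from a low to a clear signal in VTA. The shared difference was 1.85 ± 0.15 (3.60-fold, limma adjusted p = 0.0152), and Fst was the only one of the 13 that also passed adjustment within VTA alone (1.48 ± 0.10, adjusted p = 0.0347).

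Fgf10, a fibroblast growth factor that acts mainly on the FGFR2b receptor, read 6.41 and 6.16 in SNc WT, 8.14 and 8.38 in SNc KO, 6.68 and 6.34 in VTA WT, and 8.18 and 8.18 in VTA KO. The 4 WT arrays were dim, and the 4 KO arrays lay between 8.14 and 8.38. The shared difference was 1.82 ± 0.12 (3.53-fold, limma adjusted p = 0.00999), with 1.97 in SNc and 1.67 in VTA.

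The receptors that rose were Grm8 and Htr2a. Grm8, a presynaptic metabotropic glutamate receptor that couples to Gi/o proteins, had the smallest adjusted p of all probesets (0.00826 by limma) and read 7.09 and 7.12 in SNc WT, 8.32 and 8.33 in SNc KO, 6.86 and 7.01 in VTA WT, and 8.21 and 8.11 in VTA KO. Its difference was 1.22 in each region, a 2.33-fold rise. Htr2a, a Gq-coupled serotonin receptor, read 6.55 and 6.59 in SNc WT, 7.97 and 7.96 in SNc KO, 6.90 and 7.01 in VTA WT, and 8.11 and 7.81 in VTA KO. KO levels were alike in the 2 regions, and the shared difference was 1.20 ± 0.11 (2.29-fold, limma adjusted p = 0.0321).

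Kcnk9, a two-pore potassium channel (TASK-3) that carries a background current, read 8.39 and 8.29 in SNc WT, 10.31 and 10.16 in SNc KO, 9.01 and 9.31 in VTA WT, and 10.48 and 10.28 in VTA KO. WT arrays were higher in VTA, whereas the KO arrays of the 2 regions overlapped. The shared difference was 1.56 ± 0.16 (2.94-fold, limma adjusted p = 0.0411). Cdh7, a type II classical cadherin of cell adhesion, read 7.94 and 7.95 in SNc WT, 9.21 and 9.19 in SNc KO, 8.26 and 8.19 in VTA WT, and 9.14 and 9.03 in VTA KO. The shared difference was 1.05 ± 0.10 (2.07-fold, limma adjusted p = 0.0321).

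Slc32a1, the vesicular transporter of GABA and glycine, read 8.16 and 8.27 in SNc WT, 9.08 and 9.23 in SNc KO, 8.18 and 8.14 in VTA WT, and 8.99 and 8.80 in VTA KO. The 4 WT arrays lay together and the shared difference was 0.84 ± 0.09 (1.79-fold, limma adjusted p = 0.0437). Of 7 GABAergic neuron markers over the signal minimum, of 11 listed, Gad2, which makes GABA, was also higher at an unadjusted p under 0.05 (0.50), Pvalb was lower (-0.77), and Gad1 differed by 0.19 (limma adjusted p = 0.848). The Pvalb mean was over the minimum only in SNc WT (6.54), and Pvalb differed by -1.23 in SNc and -0.31 in VTA. The mean level of the 7 lay between 6.94 and 6.95 in SNc WT, 6.99 and 7.16 in SNc KO, 6.67 and 6.81 in VTA WT, and 6.75 and 6.94 in VTA KO, with 1 or 2 members under the minimum in each group. The part of other GABAergic cells in the Slc32a1 value was not tested.

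**Figure D3:**
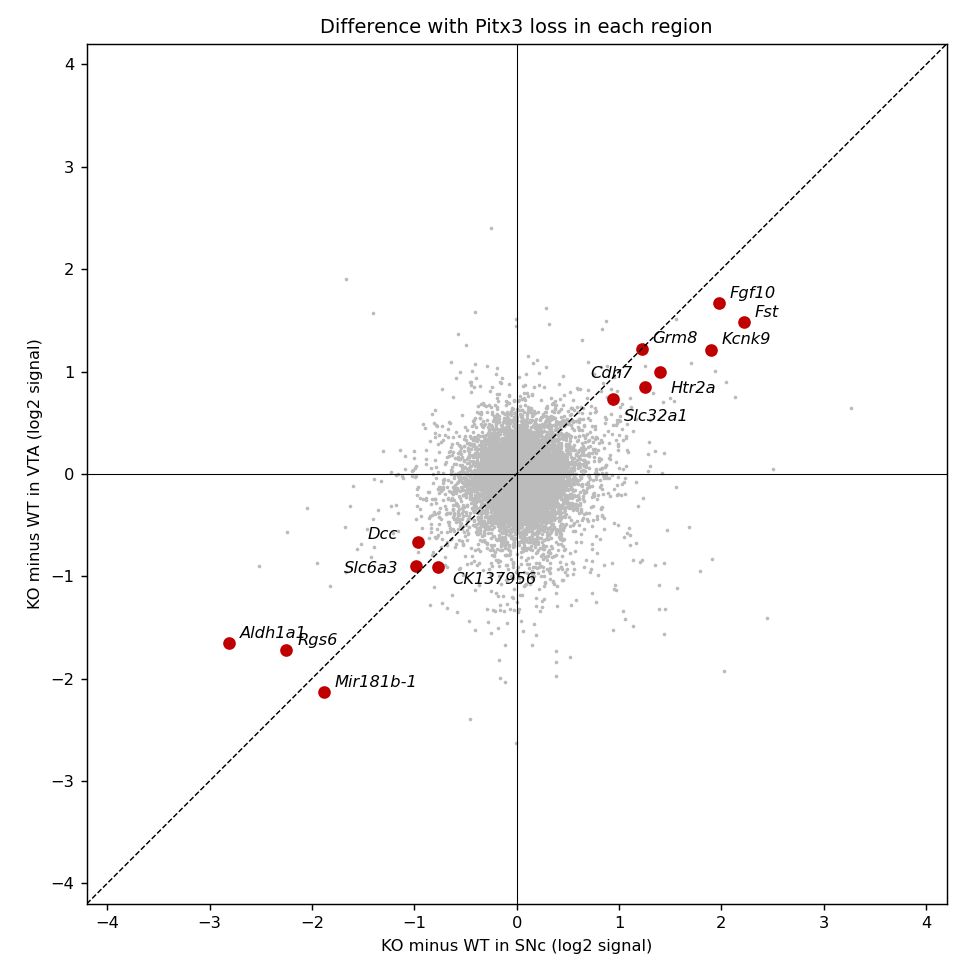
KO minus WT difference in VTA against that in SNc, in log2 signal, for the 14666 probesets with 1 symbol in grey and the 13 genes in red. The call rule required equal signs and the additive model favours equal sizes, so the place of the red points near the dashed line of equal size follows from how they were chosen. Over all points r was 0.0749.

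The regional contrasts share no array, so they can be set side by side. Of all 14666 probesets, 49.3% had the same sign in both regions and the differences were nearly uncorrelated across probesets (r = 0.0749, which is a description, since genes are not independent replicates). Among the 1306 with an unadjusted p under 0.05 in SNc, 59.9% had the same sign in VTA, and among the 1414 at that threshold in VTA 53% had the same sign in SNc. Among the 322 at that threshold in both regions, 233 (72.4%) had the same sign (142 higher, 0.968% of all, and 91 lower, 0.62%). By size, 63.3% of the 120 probesets that differed by at least 1 in SNc had the same sign in VTA, 46.0% of the 139 that did so in VTA had the same sign in SNc, and 12 of the 24 that did so in both regions had the same sign. At an adjusted p under 0.05, SNc alone gave 33 calls (0.149%) and VTA alone 2 (0.00904%). Of the 13 genes, 10 passed in SNc alone.

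The additive model counts a difference between the regional effects as residual variation, so that genes with unequal effects were less likely to be called, and the sizes in the 2 regions are given for the 13 genes as a description. The VTA difference was between 58.8% and 119% of the SNc difference over the 13 genes (median 76.7%), and 11 of the 13 were larger in SNc. By the limma test of SNc minus VTA, the unadjusted p was under 0.05 for 4 of them, Fst (0.74 ± 0.14), Aldh1a1 (-1.16 ± 0.25), Kcnk9 (0.68 ± 0.21) and Cdh7 (0.40 ± 0.14). None of the 13 passed adjustment over all probesets (lowest adjusted p = 0.277), and neither did any other probeset (0 of 22112, with 2186, or 9.89%, at an unadjusted p under 0.05). The SNc minus VTA difference was 0.00054 ± 0.15 for Grm8, -0.08 ± 0.19 for Slc6a3 and 0.25 ± 0.29 for Mir181b-1. With 2 arrays a group even differences well over their errors, such as that of Aldh1a1, did not pass adjustment. Small values therefore do not show equal effects in the regions.

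**Figure D4:**
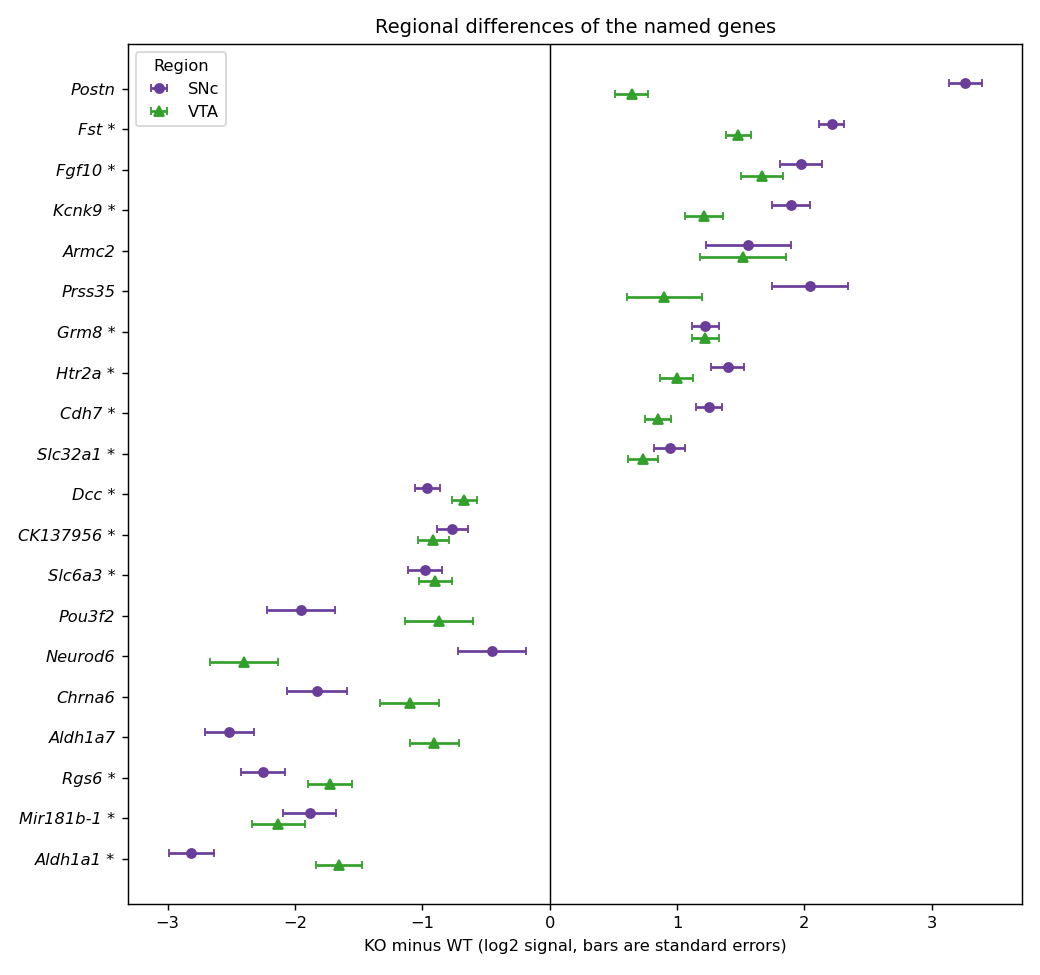
KO minus WT difference in log2 signal with its standard error in SNc (purple circles) and VTA (green triangles) for the 13 genes, marked with an asterisk, and for 7 genes with large differences that did not pass the test. Postn and Neurod6 differ most between the regions, and Grm8 least among the genes marked.

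Of the genes just outside the threshold, Asic2 and Cd47 had an adjusted p of 0.0501 with differences of 0.90 and -0.71. Aldh1a1 stood just inside it. Several genes with large differences and no overlap between KO and WT arrays in either region did not pass. Postn, an extracellular matrix protein of connective tissue, read 5.52 and 5.33 in SNc WT, 8.58 and 8.80 in SNc KO, 6.95 and 6.95 in VTA WT, and 7.51 and 7.67 in VTA KO. The 2 regional differences, 3.26 and 0.64, were unequal, and the additive model gave an adjusted p of 0.295 for their mean of 1.95. With 1 mean per group, where the regional difference is not part of the residual, the adjusted p of the same mean was 0.00404. Chrna6, a nicotinic receptor subunit of dopaminergic neurons, had a shared difference of -1.46 (adjusted p = 0.0791, and 0.038 with 1 mean per group), with 9.34 and 9.34 in SNc WT, 7.15 and 7.87 in SNc KO, 9.28 and 9.34 in VTA WT, and 8.09 and 8.33 in VTA KO.

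Aldh1a7, a close relative of Aldh1a1, had a difference of -1.71 (adjusted p = 0.166, and 0.0132 with 1 mean per group), with -2.52 in SNc and -0.90 in VTA, and whether its probes also bind Aldh1a1 was not tested. The POU-domain factor Pou3f2 differed by -1.41 (adjusted p = 0.166), but a second, dimmer probeset gave -0.22. Neurod6, a basic helix-loop-helix factor of VTA neurons, differed by -2.40 in VTA and by -0.45 in SNc (adjusted p of the shared effect 0.380), where its signal was under the minimum in both groups. Prss35, of the trypsin family, differed by 1.47 (adjusted p = 0.177). One Armc2 probeset differed by 1.54 (adjusted p = 0.0867), while a brighter probeset of the same gene gave 0.29.

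The promoters of the 13 genes were searched for motifs of the factors involved. RefSeq windows of 250 bases before the annotated start (GRCm38.p6) were found for 9 of the 13 genes, in 14 windows, since some genes have several starts. The letters searched on both strands were TAATCC and TAAGCC, which bicoid-type homeodomain proteins such as Pitx3 bind, and AAAGGTCA, which Nurr1 binds as a monomer. TAATCC occurred in 1 of 14 windows (7.14%, against 5.31% of the windows of all genes tested), TAAGCC in 2 (14.3%, against 7.43%) and AAAGGTCA in 0 of 14 (against 0.944%). The 3 windows with a match are shown with the matching bases in capitals, which for a match on the opposite strand read GGATTA or GGCTTA. A match is a description of the letters and does not show binding.
Cdh7, chr1:109982650-109982899, plus strand: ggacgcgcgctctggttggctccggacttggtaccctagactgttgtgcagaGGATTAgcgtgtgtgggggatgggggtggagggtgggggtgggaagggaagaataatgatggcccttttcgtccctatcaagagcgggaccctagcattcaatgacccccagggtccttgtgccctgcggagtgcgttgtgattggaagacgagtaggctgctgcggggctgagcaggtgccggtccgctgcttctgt
Grm8, chr6:28126427-28126676, minus strand: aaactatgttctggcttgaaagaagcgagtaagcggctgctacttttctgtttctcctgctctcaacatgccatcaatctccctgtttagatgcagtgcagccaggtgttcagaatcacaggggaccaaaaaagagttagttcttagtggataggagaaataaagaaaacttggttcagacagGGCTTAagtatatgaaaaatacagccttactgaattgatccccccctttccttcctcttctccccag
CK137956, chr4:127970842-127971091, minus strand: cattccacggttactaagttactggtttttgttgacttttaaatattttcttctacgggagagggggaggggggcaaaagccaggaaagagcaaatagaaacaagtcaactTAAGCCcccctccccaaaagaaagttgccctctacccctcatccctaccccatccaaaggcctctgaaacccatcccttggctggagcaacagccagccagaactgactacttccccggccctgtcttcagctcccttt
Grm8 and Cdh7 rose and CK137956 fell, so the windows with a match came from genes that changed in either direction. The windows of Aldh1a1, Rgs6, Slc6a3, Fgf10, Htr2a and Slc32a1 held none of these letters.

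Gene groups were described by 1 probeset per gene, that of highest mean signal, and are set against all 13264 genes, of which 4.49% were higher and 3.65% lower at an unadjusted p under 0.05 with the same sign in both regions (4.45% and 3.61% of the 1-symbol probesets), with a median difference of -0.00153. Such members are called nominally higher or lower. Where a single difference is given for a gene, it is the mean over both regions, which can differ in size or sign. The lists were compiled with results of these data known, so their counts are descriptions. Members named beyond the highest and the lowest of a list and the genes called were chosen after their values were seen. Only the 13 genes passed the test adjusted over all 22112 probesets, and called refers to that test. With only 1-symbol probesets in the fit 65 passed, and list members among these beyond the 13 were not counted. A group said to hold 0 or 1 called members can therefore hold more under that setting. The vSNc markers nearly all pointed downward. Of 17 members, all over the minimum, 3 fell (Aldh1a1, Rgs6 and Slc6a3), 16 were nominally lower and 0 were higher, with a median of -0.94 (-0.98 in SNc and -0.74 in VTA). This list holds genes that the study itself picked out of these arrays, which fixes much of its direction.

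The mean level of the 17 vSNc markers lay between 8.71 and 8.73 in SNc WT, between 7.36 and 7.49 in SNc KO, between 8.10 and 8.20 in VTA WT and between 7.35 and 7.42 in VTA KO. WT levels were higher in SNc than in VTA, and KO levels overlapped between the regions. The transcription factor Lmo3 differed by -1.31 (-1.67 in SNc and -0.95 in VTA), the nicotinic subunit Chrnb3 by -1.15 (-1.56 and -0.73), the secreted factor Ndnf by -1.11 (-1.52 and -0.69) and the SoxD factor Sox6 by -0.92 (-1.41 and -0.44). Insulin-like growth factor 1 (Igf1) was lower by similar amounts in SNc (-0.70) and VTA (-0.89).

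Dopamine handling genes other than the transporter showed smaller differences. Of 15 members 1 fell and 4 were nominally lower, with a median of -0.05. The autoreceptor Drd2 read 9.08 and 9.10 in SNc WT, 8.08 and 8.13 in SNc KO, 8.65 and 8.60 in VTA WT, and 8.13 and 8.23 in VTA KO, a difference of -0.71 (adjusted p = 0.131, and 0.0301 with 1 mean per group). The vesicular transporter Slc18a2 differed by -0.41 (adjusted p = 0.264) and the decarboxylase Ddc by -0.41 (adjusted p = 0.431). Tyrosine hydroxylase (Th) differed by 0.02 ± 0.10 (adjusted p = 0.989). Sorting by EGFP under the Th promoter favours like Th levels in all groups. The Th value therefore cannot show whether Th depends on Pitx3.

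The 8 genes that the study treats as Pitx3 targets include 4 of the 13, namely Aldh1a1, Rgs6 and Slc6a3, which fell, and Fgf10, which rose. Because the study chose part of them on these arrays, the count is not independent evidence of a direction. The neurotrophin Bdnf, also on that list, differed by -0.14 ± 0.09 (adjusted p = 0.790), and Th, Drd2 and Slc18a2 are given above.

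Markers of the VTA and dSNc had the opposite sign in SNc and differed little in VTA by the median. Of 19 members 1 rose (Grm8), 8 were nominally higher and 2 lower, with a median of 0.25 over both regions, 0.90 in SNc and 0.08 in VTA. The homeodomain factor Otx2 differed by 2.13 in SNc and 0.76 in VTA, the neuropeptide gene Cck by 1.29 and 0.31, the calcium-binding protein genes Calb1 by 0.90 and 0.31 and Calb2 by 0.97 and 0.48, and the vesicular glutamate transporter Slc17a6 by 1.08 and 0.24. None of these passed the adjusted test of the shared effect in the additive model (adjusted p between 0.166 for Calb2 and 0.380 for Slc17a6), and with 1 mean per group Otx2 did (adjusted p = 0.0301). The lipase gene Lpl was lower, by -0.29 in SNc and -1.32 in VTA.

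**Figure D5:**
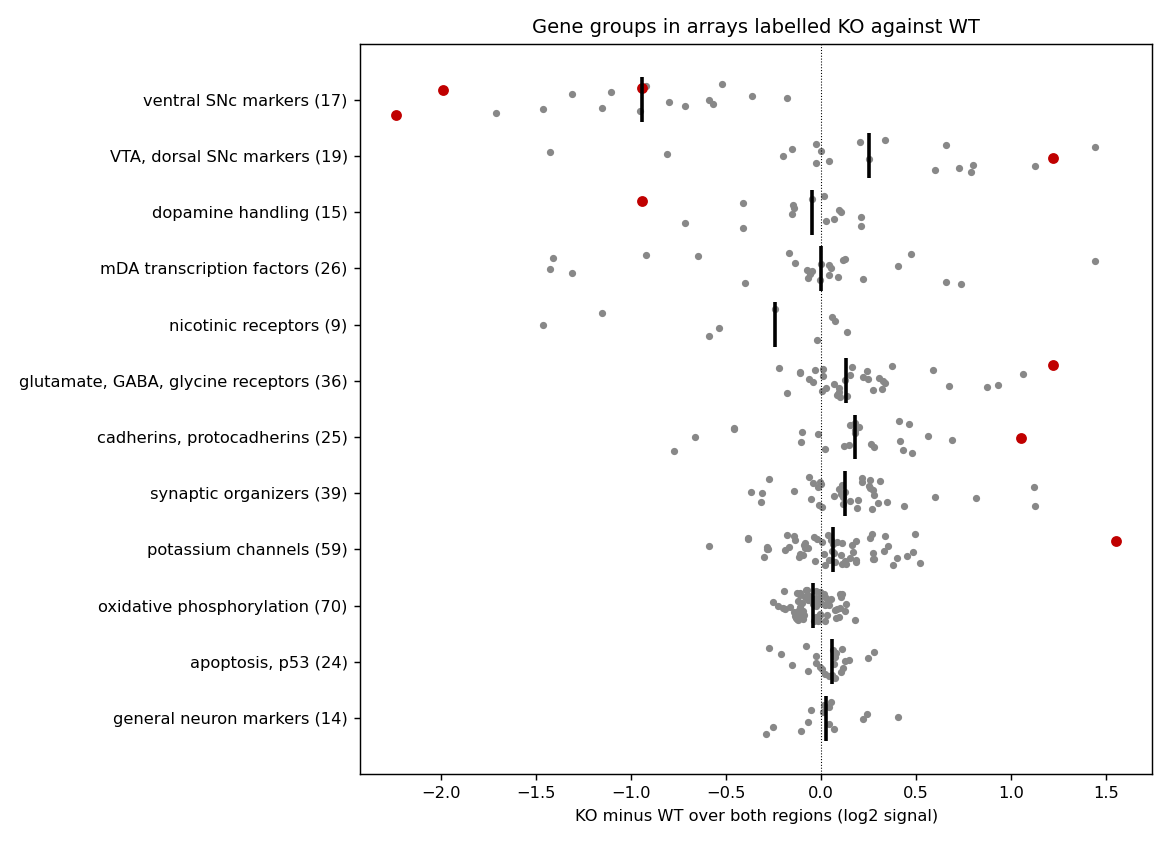
KO minus WT difference over both regions, in log2 signal, of each member over the signal minimum (number in brackets) of 12 gene groups, with members called at an adjusted p under 0.05 in red, the others in grey and a black line at each group's median. The vSNc markers all lie to the left of 0 around a median of -0.94, and oxidative phosphorylation genes lie between -0.25 and 0.18.

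Transcription factors of mDA neurons were split. Of 26 members 0 were called, 5 were nominally higher and 6 lower. The higher ones were Otx2 (1.44), Bcl11a (0.74), Ebf1 (0.66), Tcf7l2 (0.47) and Ebf3 (0.22), and the lower ones Neurod6 (-1.43), Pou3f2 (-1.41), Lmo3 (-1.31), Sox6 (-0.92), Satb1 (-0.65) and Bnc2 (-0.40). The core identity factors showed small values, with -0.13 for Nr4a2, -0.07 for En1 and -0.06 for Foxa2.

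In the retinoic acid pathway 1 of 15 members fell, Aldh1a1, and 3 were nominally lower, among them Rbp4, a carrier of retinol (-0.96, adjusted p = 0.0791). Aldh1a3, which also makes retinoic acid, differed by 0.07, and Dhrs3, which reduces retinaldehyde, by 0.42 (limma adjusted p = 0.711), with 0.84 in SNc and 0.01 in VTA. Of 20 genes of RGS proteins and their partners 1 fell, Rgs6, and 4 were nominally lower and 1 higher. The other R7 members gave 0.29 for Rgs9, the highest of the list, and 0.11 for Rgs7, and the obligate R7 partner Gnb5 gave 0.25.

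Follistatin was the only called member of its pathway. Of 32 genes of activin, TGF-beta and BMP signalling 1 rose, Fst, and 4 were nominally higher and 1 lower. The BMP antagonist Grem1 differed by 0.47, the ligand Gdf11 by 0.30 and the activin subunit Inhba by 0.17 (adjusted p = 0.898), while the lowest member, the signal transducer Smad5, differed by -0.29. Of 33 growth factor genes 1 rose, Fgf10, and 6 were nominally higher and 4 lower. Ret, the receptor through which GDNF acts, read 9.19 and 8.85 in SNc WT, 9.45 and 9.45 in SNc KO, 9.01 and 8.84 in VTA WT, and 9.34 and 9.51 in VTA KO, a difference of 0.46 (adjusted p = 0.233).

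Grm8 was the only called gene among the receptors for glutamate, GABA and glycine and the nicotinic subunits. Of 36 glutamate, GABA and glycine receptor genes 1 rose, Grm8, 12 were nominally higher and 0 lower, and the median was 0.13. The NMDA receptor subunit genes Grin2a (1.06, adjusted p = 0.0916) and Grin3a (0.59, adjusted p = 0.0683) were among the others, with the glycine and GABA receptor genes Glra2 (0.68) and Gabrq (0.88). The lowest member, Grm3, differed by -0.22 (adjusted p = 0.870). Of 9 nicotinic receptor subunit genes 0 were called, 0 were higher and 4 lower (Chrna6, Chrnb3, Chrna3 at -0.59 and Chrna5 at -0.54), with a median of -0.24 (-0.54 with a signal minimum of 120), while Chrna4, a subunit of wide expression, differed by 0.14.

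Of 59 potassium channel genes 1 rose, Kcnk9, and 9 were nominally higher and 5 lower. Kcnj6, a G-protein-gated channel subunit of SNc neurons, was the lowest at -0.59 (-0.95 in SNc and -0.23 in VTA), and the small-conductance channel gene Kcnn3 differed by -0.38. Of 34 sodium, calcium and cation channel genes 0 were called, 9 were higher and 2 lower. The cation channel genes Trpc5 and Trpc6 marked both ends, at 1.18 (adjusted p = 0.0582) and -0.96 (adjusted p = 0.148), and Trpc5 was 1 of the members with a larger difference in VTA (1.49) than in SNc (0.87).

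Of 24 neuropeptide genes 0 were called, 6 were nominally higher and 2 lower, from somatostatin (Sst, 0.86) to neuropeptide Y (Npy, -0.65). Sst was higher in both SNc (0.75) and VTA (0.97). Of 39 synaptic organizer genes 0 were called, 12 were higher and 2 lower, led by Cbln1 (1.13), Nxph1 (1.12) and Il1rapl1 (0.82), whose products bind neurexins or receptor phosphatases across the synapse. Of 41 synaptic vesicle genes 1 rose, Slc32a1, and 8 were higher and 4 lower, with Cplx1, a complexin that regulates vesicle fusion, the lowest at -0.51.

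Cell contact genes gave called members in both directions. Of 54 axon guidance genes 1 fell, Dcc, and 6 were nominally higher and 6 lower. The ephrin ligand gene Efnb2 was the highest (0.85) and the receptor gene Epha4 the lowest (-0.86), and Ntn1, whose product netrin-1 is a ligand of Dcc, differed by -0.20 (adjusted p = 0.682). Of 25 cadherin and protocadherin genes 1 rose, Cdh7, and 10 were higher and 3 lower, with Cdh6 at 0.69, Cdh9 at 0.56, Cdh8 at -0.66 and Cdh11 at -0.77. Of 41 extracellular matrix genes 0 were called, 6 were higher and 2 lower, among them Sulf1 (1.47, adjusted p = 0.0679, and 0.00479 with 1 mean per group), Spon1 (0.86) and reelin (Reln, 0.69, adjusted p = 0.0582) on the higher side and Adamts6 (-0.86) on the lower. Adamts6 differed by -1.60 in SNc and -0.12 in VTA, and its mean was over the minimum only in SNc WT (6.42).

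The Wnt, Parkinson disease, mitochondrial, stress, apoptosis and general neuron groups held no called member. Of 34 Wnt pathway genes 2 were nominally higher and 2 lower (5.88% each way), from Wnt7a (0.66) to Lgr4 (-0.45). Wnt7a differed by 1.29 in SNc and 0.03 in VTA, and Lgr4 by -0.70 and -0.20. Of 15 familial Parkinson disease genes, 70 oxidative phosphorylation genes and 25 immediate early and stress genes 0 were higher and 0 lower, with extremes of 0.22 (Sncg) and -0.16 (Fbxo7), 0.18 (Atp5d) and -0.25 (Ndufb6), and 0.19 (Dusp6) and -0.40 (Hspa1a). Of these extremes Sncg, Ndufb6, Dusp6 and Hspa1a had opposite signs in the regions, with 0.15 in SNc and -0.95 in VTA for Hspa1a. Of 24 apoptosis and p53 response genes 1 was higher, Phlda3 (0.28), and Trp53inp1 was lowest at -0.27. Among 14 general neuron markers Nefm (0.40) was higher, Elavl4 (-0.25) lower (7.14% each way), and Dcx lowest at -0.29.

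Markers of cells other than neurons were detected and varied between the preparations. Of 28 ciliated cell markers 4 were nominally lower, and their mean level lay between 5.96 and 6.07 in SNc WT, 6.05 and 6.06 in SNc KO, 7.59 and 7.92 in VTA WT, and 6.63 and 7.40 in VTA KO. The extremes were Tekt1 (0.01) and Tmem212 (-0.75). All 28 were over the minimum in VTA WT, while 17 were under it in SNc WT, 14 in SNc KO and 3 in VTA KO. Entry through VTA WT favours lower values in KO, so the count of lower members is no support for a fall. Of 15 pericyte markers 0 were higher or lower, with a mean level between 6.08 and 6.09 in SNc WT, 6.90 and 7.00 in SNc KO, 6.94 and 7.23 in VTA WT, and 5.94 and 7.26 in VTA KO, where Vtn differed by 1.91 in SNc and -0.83 in VTA and Kcnj8 by 0.57 and -0.76. Postn and Sulf1 were higher in SNc KO, where the pericyte level was also higher, and the part of that level in their values was not tested.

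Of 11 astrocyte markers 1 was higher (Aldoc, 0.45) and 2 lower, Vim (-0.48) and the glutamate transporter Slc1a2 (-0.75, adjusted p = 0.0582), and their mean level lay between 7.38 and 7.40 in SNc WT, 7.42 and 7.55 in SNc KO, 8.13 and 8.33 in VTA WT, and 7.52 and 7.98 in VTA KO. Of 6 microglial markers over the minimum, of 16 listed, 3 were lower, Mrc1 (-0.72), C3ar1 (-0.60) and C1qc (-0.37), with a mean level between 6.59 and 6.67 in SNc WT and between 5.92 and 6.17 in the other groups, and Cx3cr1 differed by 0.08. Mrc1 differed by -1.40 in SNc and -0.05 in VTA. None of the 9 oligodendrocyte markers (lowest Mag, -0.22, highest Cspg4, 0.19), 2 endothelial markers (Flt1, 0.13, and Cldn5, -0.07), 1 red cell marker (Slc4a1, -0.01), 2 serotonergic markers (Htr5b, 0.26, and Htr1a, 0.15) and 7 markers of dividing cells (Top2a, 0.10, to Aurkb, -0.16) was nominally higher or lower. Of 2 glutamatergic markers over the minimum, Slc17a6 was higher (0.66) and Slc17a8 differed by 0.26, and 0 noradrenergic markers passed the minimum. The part of these cells in the values of the 13 genes was not tested.

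Y-linked transcripts had lower values in KO. Eif2s3y read 7.96 and 8.20 in SNc WT, 7.27 and 7.41 in SNc KO, 7.53 and 7.24 in VTA WT, and 6.87 and 7.00 in VTA KO, a difference of -0.59 (adjusted p = 0.174), and Uty (-0.44) and Kdm5d (-0.36) had the same direction without overlap in either region. Xist differed by 0.16. The sex of the pooled pups is not in the labels, and its part in the differences between KO and WT was not tested.

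Genes near Pitx3 on its chromosome were read because neighbours are inherited together with a mutated allele. Of the 100 measured genes nearest to it (50 on each side in gene order), 0 were called, 6 were nominally higher and 2 lower, which is 8% against 8.13% of all genes. Of the 20 nearest (10 on each side) 3 were nominally higher and 0 lower, which is 15%. The 2 direct neighbours among the genes measured were nominally higher in KO, the fatty acid elongase gene Elovl3 by 0.62 (limma adjusted p = 0.129) and Gbf1 by 0.31 (limma adjusted p = 0.410).

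The number of calls was sensitive to single arrays and to the model. Other signal minimums, a variance trend, a robust fit, 1 mean per group, a replicate block and 1-symbol probesets leave each difference unchanged by construction. As KO and WT arrays of the 13 genes did not overlap, leaving out an array could not reverse a sign. Their steady sizes and signs are therefore a description and no separate support. Without any 1 of the arrays SNc WT 1, SNc WT 2, SNc KO 1 and SNc KO 2 the count of 13 became 0, without VTA WT 1 or VTA KO 1 it became 2, without VTA WT 2 it became 3 and without VTA KO 2 it became 6, but the size of each of the 13 differences stayed between 0.916 and 1.10 times its value under every alternative tried and no sign reversed. With 1 mean per group the count was 61, as the difference between the regional effects then no longer counts as residual, and with only 1-symbol probesets in the fit it was 65, which included all 13. At the thresholds of the methods with the p of limma (unadjusted p of at most 0.05 and at least 1.5-fold) 191 probesets (0.864%) were higher and 215 (0.972%) lower with the same sign in both regions.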

How the data were processed

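RNA of 8 pools of sorted EGFP+ cells was amplified with a linear method (WT-Ovation Pico) and read on Affymetrix Mouse Gene 1.0 ST arrays. The log2 expression values were made by the authors with RMA (RMA Express, no version stated) before they were deposited, and are not centred per gene. Normalization with LPE in FlexArray is stated too, with thresholds on p and fold but no test that has a term for region, so limma 3.58.1 in R 4.3.3 was used. An additive model (region and genotype, 5 residual and 2.4 prior degrees of freedom) was fitted to all 8 arrays over 22112 probesets. In at least 1 group their mean log2 signal reached the log2 of 60, the signal minimum of the methods. Regional differences and the test of their difference came from a model with 1 mean per group (4 residual degrees of freedom). A call needed the same sign in both regions and a p under 0.05 after Benjamini-Hochberg adjustment over all 22112. These include probesets with several symbols or none, and a fit and adjustment over 1-symbol probesets alone gave more calls. An error given with ± is the standard error of limma.

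Symbols came from the platform annotation, in which 21789 probesets carry 1 symbol, 1621 several and 12102 none. They were checked through 21698 gene IDs found in the RefSeq gene table of GRCm38.p6, by which 0 symbols changed. No source used here names the build of the array annotation, and coordinates are printed only for sequences taken from RefSeq. Arrays were grouped by their titles.

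Named genes are all called genes (up to 15 in each direction), filled up to 10 in each direction with the largest differences at an unadjusted p under 0.05 without overlap in either region, Pitx3, Th and the other targets of the study, and the highest and lowest member of each gene list. The members and lists were chosen with earlier results of these data known. Alternatives were other signal minimums, quantile and median normalization, a variance trend, robust and weighted fits, 1 mean per group, a replicate block, 1-symbol probesets only, the thresholds of the methods and leaving out each array.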

Additional observations from a re-analysis of the deposited data

Results flagged for a closer look

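Some gene lists had every KO array above every WT array in 1 region and below in the other by the mean level of the list, although whether the regions differ was not tested for them. All lists with more than 2 members over the signal minimum were scanned. With 2 arrays a group some lists can separate in this way by chance. The median KO minus WT difference was 0.329 in SNc and -0.0174 in VTA for neuropeptide genes, 0.105 and -0.130 for immediate early and stress genes, and -0.0494 and 0.0852 for general neuron markers. It was 0.278 and -0.299 for oligodendrocyte markers, 0.113 and -0.580 for astrocyte markers, and 0.261 and -0.258 for markers of dividing cells. The 2 arrays of a group were too few for a search for single outlying arrays.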

How the results depend on the processing

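The direction of all 13 shared changes held under all alternatives run, and their sizes stayed between 0.916 and 1.10 times those reported. Much of this was fixed in advance, since many of the settings leave the differences unchanged by construction. The counts of calls depended on the setting. In order, for the shared effect (13), SNc (33), VTA (2) and the difference of the regions (0), they were 5, 14, 0 and 0 with no signal minimum, 23, 53, 1 and 0 with a minimum of 120, 17, 30, 8 and 0 after quantile normalization, 20, 29, 10 and 0 with array medians subtracted, 17, 28, 0 and 0 with a variance trend, 48, 89, 0 and 0 with array weights, 65, 97, 21 and 3 with 1-symbol probesets only, and 406, 815, 973 and 1490 at the thresholds of the methods. With 1 mean per group the shared effect gave 61 calls, at an adjusted p under 0.1 it gave 57, and with an unadjusted p under 0.05 in each region and the same sign it gave 294. The last 2 rules were chosen after seeing the data. Leaving out 1 array gave 0 to 6 calls for the shared effect, 0 to 31 in SNc, 0 to 65 in VTA and 0 to 13 for the difference. The highest VTA count and the 13 calls came without VTA KO 1, and 30 calls in VTA without VTA KO 2. Where an array was left out, the lone array of its group was assumed to vary like the others.

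Arrays of the same number deviated together little (correlations of 0.00577 to 0.098 between groups). Such values cannot exclude a weak pairing or a pairing that touches only some genes. With a replicate block the shared effect gave 3 calls, SNc 3, VTA 0 and the difference 0. The additive model holds the difference between the regional effects in its residual and the model with 1 mean per group does not, so a call of the first also asks for like sizes in both regions. The causes of the other changes in counts were not tested.

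The median of the nicotinic receptor genes (-0.24) was -0.54 with a minimum of 120 and -0.39 with array weights, and between -0.45 (without VTA KO 2) and -0.15 (without SNc KO 1) when an array was left out, with -0.16 without either SNc WT array. That of the VTA and dSNc markers (0.25) was 0.45 without VTA KO 1, 0.17 without VTA KO 2 and 0.16 without SNc WT 2, and that of dopamine handling genes (-0.05) lay between -0.15 and -0.01.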
